A study of Mus musculus with 2 samples.

Results

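Transcripts of 10 genes that carry membrane proteins to the primary cilium, or hold them there, were followed in single cells of mouse gastruloids. The genes are Arl13b, Arl3, Inpp5e, Tulp3, Gpr161, Rab8a, Rab11a, Rab34, Rab23 and Unc119b. They were picked by symbol, and all 10 were found among the 32285 genes of the deposited count matrices. Barcodes with at least 2500 UMIs, at least 1000 genes and at most 10% mitochondrial UMIs were taken as cells, which gave 19294 cells. A UMI, or unique molecular identifier, tags each captured transcript so that its amplified copies count once.

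The primary cilium is a single antenna on most vertebrate cells, and its membrane differs in content from the plasma membrane around it. Vesicles from the Golgi and recycling endosomes bring membrane to the base of the cilium under the control of Rab GTPases. Lipid-modified proteins are carried in the cytoplasm by chaperones and set free inside the cilium by an Arl GTPase, and receptors enter through adaptors that bind the intraflagellar transport machinery. In embryos this traffic is best known for its part in Hedgehog signalling, whose receptors and inhibitors pass through the cilium.

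Gastruloids are aggregates of embryonic stem cells that begin to pattern themselves in culture. Both groups came from the R1 mouse embryonic stem cell line, 1 wild type and 1 with the transcription factor genes Sp5 and Sp8 knocked out, and each aggregate was started with 300 cells in N2B27, a medium without serum. Wnt signalling was switched on in both with 3 µM CHIR, which inhibits GSK3, over 12 hours starting on day 2, and the aggregates were pooled and dissociated at day 2.5. The labels do not say how many knockout clones were used or which part of each gene was deleted. There was 1 library per genotype, with 10x Genomics 3′ chemistry, so no difference below has a replicate check and no test was made. All intervals are 95% intervals and cover counting error only.

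The libraries labelled wild type and double knockout held 8707 and 10587 cells, with 97157331 and 97644169 UMIs in cells and medians of 10571 and 8637 UMIs per cell. They shared 27 cell barcodes. Pou5f1, which marks pluripotent cells, was detected in 96.7% and 96.9% of cells. Sp5 stood at 109 counts per 1000000 UMIs in cells (CPM) in the library labelled wild type and at 479 CPM in the library labelled double knockout, and Sp8 at 20.8 and 40.1 CPM. Both targeted genes were thus higher where the label says they were knocked out. A 3′ tag outside the deleted part would check nothing, so the directions below are those between libraries as labelled, not effects of losing either factor. If the labels of the libraries had been exchanged, the sign of every ratio between them would turn, which was not tested. Pairs of values are given first for the library labelled wild type and then for the library labelled double knockout.

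Sp transcription factors bind GC boxes, so the promoters of the 10 genes were read for the letters GGGCGG on either strand (CCGCCC on the other), with overlapping matches counted. RefSeq windows of 250 bases before the transcript start, on GRCm38.p6, were matched by symbol for all 10 genes, with 14 windows in all. At least 1 match was found for 8 of the 10 genes and in 10 of 14 windows (71.4%). Over all 32851 windows the share was 32.7%, and over the 12458 windows of genes with a mean of at least 1 CPM it was 59.3%. A match is a description of the letters and not a bound site. Windows of 3 genes are printed 5′ to 3′ on the strand of the gene with the matches in capitals. Arl3 is shown because it held the most matches (5). It also varied most across cell states among the genes with at least 20 UMIs in every state and library. Tulp3 (2 matches) is shown because it was lower in cells low in its chromosome. Rab8a is shown because it had the highest level with no match. These are the 3 windows printed. The windows lie at chr19:46573183-46573432 (minus strand), chr6:128355852-128356101 (minus strand) and chr8:72160950-72161199 (plus strand).
Arl3: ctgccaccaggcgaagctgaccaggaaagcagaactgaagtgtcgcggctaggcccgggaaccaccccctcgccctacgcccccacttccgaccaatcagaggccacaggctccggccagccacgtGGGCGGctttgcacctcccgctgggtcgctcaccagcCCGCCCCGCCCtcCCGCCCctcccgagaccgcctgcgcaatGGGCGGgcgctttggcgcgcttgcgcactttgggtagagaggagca
Tulp3: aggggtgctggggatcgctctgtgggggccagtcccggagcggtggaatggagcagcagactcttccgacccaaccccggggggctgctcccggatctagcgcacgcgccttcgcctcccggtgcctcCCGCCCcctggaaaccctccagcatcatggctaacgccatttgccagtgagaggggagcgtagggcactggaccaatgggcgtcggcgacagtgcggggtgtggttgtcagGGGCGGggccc
Rab8a: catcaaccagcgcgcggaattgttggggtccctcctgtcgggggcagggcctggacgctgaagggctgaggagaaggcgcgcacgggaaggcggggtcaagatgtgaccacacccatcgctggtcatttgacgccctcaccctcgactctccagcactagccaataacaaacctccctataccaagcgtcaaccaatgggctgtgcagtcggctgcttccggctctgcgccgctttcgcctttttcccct
The only other gene with no match was Gpr161, the gene with the lowest level of the 10. A relation between matches and level was not tested.

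The Rab GTPases had the highest levels. Rab8a, which works at the docking of vesicles at the cilium base, stood at 124 CPM (122 to 126) and 131 CPM (129 to 134). Its identifier is ENSMUSG00000003037, and it spans 72161200 to 72183904 of chromosome 8 (plus strand), by the GENCODE M21 annotation of GRCm38. All gene positions here are from that annotation. Rab11a (ENSMUSG00000004771, chromosome 9, 64715299 to 64737758, minus strand), the recycling endosome Rab that acts upstream of Rab8a, stood at 81.1 CPM (79.3 to 82.9) and 83.9 CPM (82.1 to 85.8). Rab34 (ENSMUSG00000002059, chromosome 11, 78188430 to 78192193, plus strand), needed for the ciliary vesicle in cells that build the cilium inside the cytoplasm, stood at 66.7 CPM (65.1 to 68.4) and 73.1 CPM (71.4 to 74.8). Rab23, a Rab that restrains Hedgehog signalling, was the lowest of the 4 Rabs. It stood at 31.0 CPM (29.9 to 32.1) and 29.1 CPM (28.0 to 30.2), and spans 33719887 to 33742564 of chromosome 1 (plus strand, ENSMUSG00000004768). The 4 Rabs thus kept the same order in both libraries.

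The genes of the lipidated cargo route spanned a wide range. Arl3 (ENSMUSG00000025035, chromosome 19, 46531096 to 46573198, minus strand), the GTPase that releases lipidated cargo in the cilium, stood at 53.4 CPM (52.0 to 54.9) and 48.7 CPM (47.4 to 50.1). Unc119b (ENSMUSG00000046562, chromosome 5, 115122550 to 115134975, minus strand), a carrier of myristoylated cargo, stood at 24.6 CPM (23.7 to 25.6) and 23.6 CPM (22.6 to 24.5). Arl13b, the ciliary GTPase that activates Arl3, stood at 20.5 CPM (19.6 to 21.4) and 21.3 CPM (20.4 to 22.2). It lies on the minus strand of chromosome 16 from 62793685 to 62847040 (ENSMUSG00000022911), where Stx19 and a microRNA gene overlap it on the other strand. Inpp5e, the phosphoinositide phosphatase that keeps the lipid makeup of the ciliary membrane apart, was much lower, at 5.35 CPM (4.90 to 5.83) and 4.71 CPM (4.29 to 5.16). It lies on the minus strand of chromosome 2 from 26396249 to 26409203 (ENSMUSG00000026925), and Pmpca overlaps it on the other strand. Whether the counting used the strand is not given in the sources used here, so Arl13b and Inpp5e may hold reads of these partners. On their own strand, Rab11a overlaps the microRNA gene Gm47308 and Tulp3 the sense intronic gene Gm44190.

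Of the receptor route, Tulp3 (ENSMUSG00000001521, chromosome 6, 128321161 to 128355851, minus strand), the adaptor that brings receptors into the cilium, stood at 24.3 CPM (23.3 to 25.3) and 25.1 CPM (24.1 to 26.1). Gpr161 (ENSMUSG00000040836, chromosome 1, 165295789 to 165326745, plus strand), one of its cargoes and a ciliary receptor that holds Hedgehog signalling back, stood at 1.79 CPM (1.53 to 2.08) and 1.53 CPM (1.29 to 1.79). These levels rested on 174 and 149 UMIs, the fewest of the 10 genes. The other 9 genes had between 460 and 12835 UMIs per library.

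On the CPM scale, which takes 1 tag per molecule at the 3′ end and was not divided by gene length, the order from Rab8a down to Rab23, and then Arl13b, Inpp5e and Gpr161, was the same in both libraries. Only Tulp3 and Unc119b changed places, and the intervals of these neighbours overlapped in both libraries. No other pair of neighbours overlapped. The 10 genes summed to 433 CPM (428 to 437) and 442 CPM (438 to 447).

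**Figure D1:**
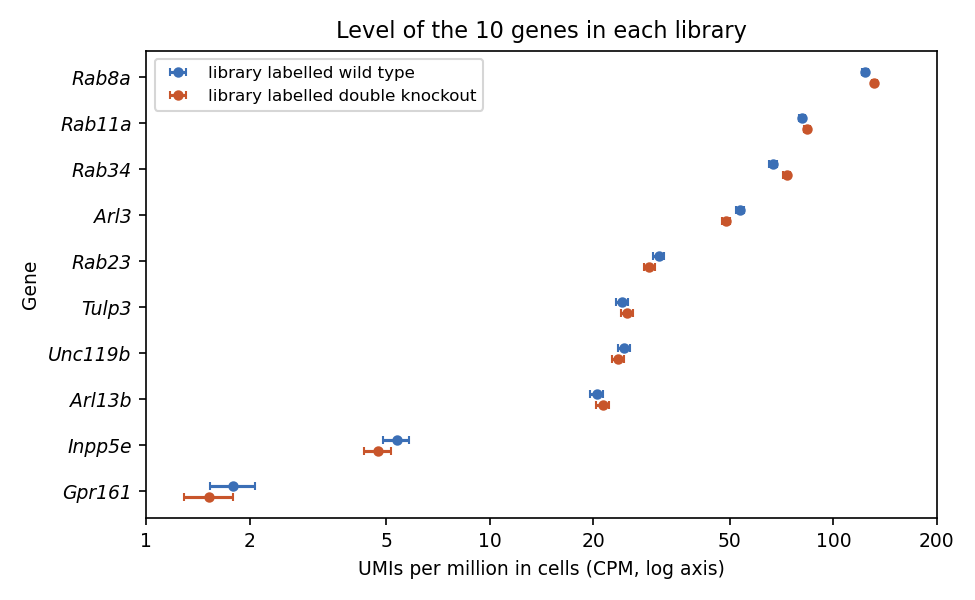
Level of each of the 10 genes in CPM (log axis), in the library labelled wild type (blue) and labelled double knockout (orange), with exact Poisson 95% intervals. Rab8a is highest at 124 and 131 CPM and Gpr161 lowest at 1.79 and 1.53 CPM, and the points of each gene lie close together.

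The 10 genes differed little between the libraries. As log2 ratios of CPM, with the library labelled wild type as the base, Rab34 was highest at 0.13 (0.08 to 0.18) and Gpr161 lowest at -0.23 (-0.56 to 0.09). None of the 10 passed 0.25 in either direction, a limit that 5.7% of the 12406 genes with a mean of at least 1 CPM passed upward and 8.89% downward. The median of the 10 ratios was -0.01, against -0.03 over those genes.

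Counting error alone separated some of the genes from a ratio of 0. The interval lay above 0 for 3 genes, all of them Rabs, against 20.5% of all genes: Rab34, Rab8a at 0.09 (0.05 to 0.12) and Rab11a at 0.05 (0.00 to 0.09). It lay below 0 for 3 genes, against 30.4% of all genes: Arl3 at -0.13 (-0.19 to -0.08), Rab23 at -0.09 (-0.17 to -0.02) and Inpp5e at -0.18 (-0.37 to -0.0003). Gpr161, Unc119b at -0.06 (-0.15 to 0.02), Tulp3 at 0.05 (-0.03 to 0.13) and Arl13b at 0.05 (-0.03 to 0.14) had intervals that held 0. Some of these interval calls changed with the scaling, the depth or the cells used. Under TMM scaling the intervals of Rab23, at -0.06 (-0.14 to 0.01), and Inpp5e, at -0.16 (-0.34 to 0.03), held 0, which left Arl3 as the 1 gene below 0. With every cell thinned to 2500 UMIs, which leaves fewer UMIs, only Rab8a at 0.18 (0.11 to 0.25) stayed above 0 and only Rab23 at -0.16 (-0.31 to -0.01) below, while Rab34 was at 0.05 (-0.04 to 0.15) and Arl3 at -0.10 (-0.21 to 0.02). Rab11a was at 0.04 (-0.02 to 0.09) among cells with no low share of UMIs on chromosome 6 or 11. With 1 library per genotype, culture to culture spread cannot be set beside the differences over all cells, of which the largest with a narrow interval, those of Rab34 and Arl3, were folds of 1.10 and 0.912.

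**Figure D2:**
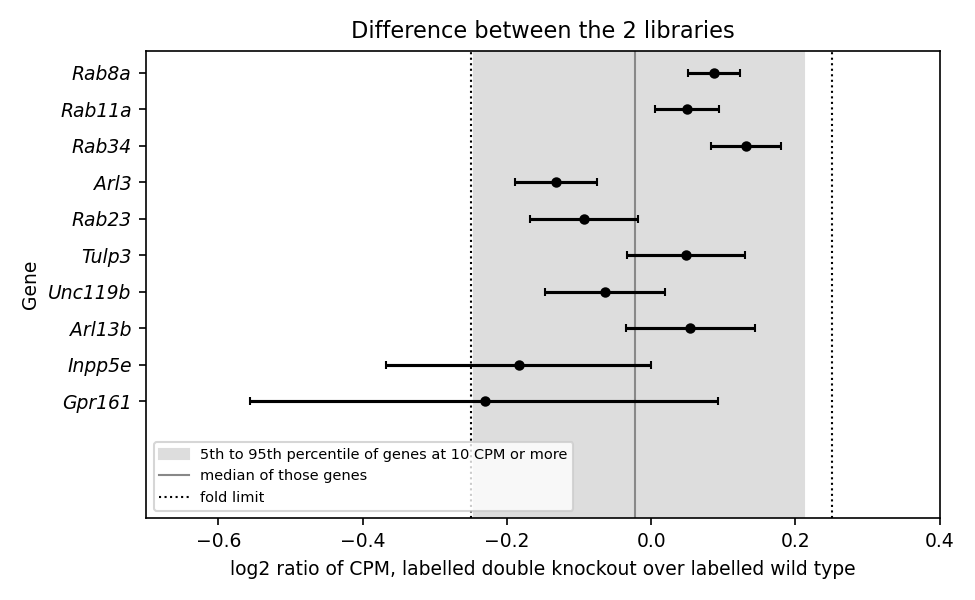
Log2 ratio of CPM between the libraries for each gene with its exact conditional 95% interval, over a grey band from the 5th to the 95th percentile of genes with at least 10 CPM. All 10 points lie inside the fold limit of 0.25, from -0.23 for Gpr161 to 0.13 for Rab34.

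Most cells held transcripts of several of the genes. The median cell had UMIs of 3 of the 10 in both libraries, the highest number in 1 cell was 9, and no cell had all 10. At least 1 of the 10 was seen in 97.3% and 96.2% of cells with all UMIs, and in 65.4% and 65.9% once every cell was thinned to 2500 UMIs, which puts both libraries at the same depth. Rab8a was the most widely detected, in 25.4% (24.5 to 26.4) and 28.4% (27.5 to 29.3) of thinned cells, or 70.4% and 67.2% with all UMIs. For Rab8a the thinned share, like the CPM, was higher in the library labelled double knockout, while the share with all UMIs had the opposite order, as did the depth per cell.

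The thinned shares of Rab11a were 18.4% and 18.8%, those of Rab34 15.5% and 16.1%, and those of Arl3 12.3% and 11.8%. Rab23 was seen in 7.60% (7.05 to 8.18) and 6.90% (6.43 to 7.40) of thinned cells. Unc119b was seen in 5.71% and 5.28%, Arl13b in 5.03% and 5.08%, and Tulp3 in 522 and 632 thinned cells, the latter 5.97%. Inpp5e was seen in 1.30% and 1.18%, and Gpr161 in 0.356% (0.242 to 0.505) and 0.321% (0.223 to 0.448). With all UMIs the shares ran from 1.98% and 1.40% for Gpr161 to 56.9% and 52.2% for Rab11a below the Rab8a values. Apart from Rab8a, the intervals of the 2 libraries overlapped for every gene.

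Free RNA in the droplets was read from barcodes with 10 to 100 UMIs, since no cell type here is known to lack these genes. Near-empty barcodes gave 103 and 94.4 CPM for Rab8a, 91.7 and 91.3 CPM for Rab11a and 61.4 and 53.9 CPM for Arl3. In cells Rab8a was higher than that, by 0.27 (0.13 to 0.42) and 0.47 (0.29 to 0.67) on the log2 scale, next to a median over all genes of 0.29 and 0.26. Arl3 was -0.20 (-0.39 to -0.01) and -0.15 (-0.39 to 0.11) and Rab11a -0.18 (-0.33 to -0.02) and -0.12 (-0.31 to 0.07) on the same scale. Gpr161 had 4 and 5 UMIs in 101446 and 89160 near-empty barcodes, against 174 and 149 UMIs in 8707 and 10587 cells. CPM is a share of UMIs, so it does not give the part of free RNA in a single cell. That part was not tested.

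Cells of both libraries were clustered together without using the 10 genes, genes of the same pathways or any gene of chromosomes 6 and 11. Of 8 clusters, 6 had at least 100 cells in each library and are called states. State 0 (2877 and 5563 cells) met the rule for primitive-streak-like by Eomes, Fgf8 and Evx1. T, Mixl1, Wnt3, Mesp1 and Nkx1-2 of the same marker list were not counted as higher there. Fgf5 and Otx2 of the primed epiblast list were, and Tdgf1, Pla2g1b and Car4 led the state, so the name is a loose one. State 1 (3603 and 3115 cells) had Irx3, Gbx2, Irx5 and Sox3 among its leading genes and stays unnamed. State 2 (1381 and 959 cells) met the rule for 2 classes, primitive-streak-like by T, Mixl1, Eomes, Fgf8 and Evx1 and primed-epiblast-like by Fgf5, Otx2 and Fgf15, with Mixl1, T and Fgf15 among its leading genes. State 3 (327 and 358 cells), unnamed, had a median of only 3676 and 3227.5 UMIs per cell and 0.229% and 0.232% mitochondrial UMIs. State 4 (248 and 236 cells) was neural-like by Sox1, Pax6, Hes5, Zic1 and Pax3. Irx3 of the neural list was not counted as higher in state 4, while Pou3f1, Sox3 and Fgf15 of the primed epiblast list were. State 5 (216 and 264 cells) was naive-pluripotent-like by Zfp42, Esrrb, Tfcp2l1, Nr0b1, Dppa3 and Klf2. Klf4 and Tbx3 of the same list were not counted as higher in state 5. Otx2 and Pou3f1 of the primed epiblast list and Krt8, Krt18 and Tfap2c of the trophoblast list were.

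All 10 genes were detected in every state, except Gpr161 in state 3. Each state was set against all other cells of the same library, and a gene was counted where it was 0.5 or more higher, or lower, on the log2 scale in both libraries. Of the 10 genes, 0 were higher in any of the 6 states. The share of all genes counted as higher in states 0 to 5 was 1.93%, 2.16%, 1.73%, 2.4%, 11.3% and 7.13%. Lower were Arl3 in state 5, and Tulp3, Rab23 and Unc119b in state 3, which makes 4 pairs of gene and state. The share of all genes counted as lower in states 0 to 5 was 2.63%, 3.3%, 3.96%, 37%, 5.16% and 9.09%, so that 3 of the 4 pairs fell in the state where many genes were lower.

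**Figure D3:**
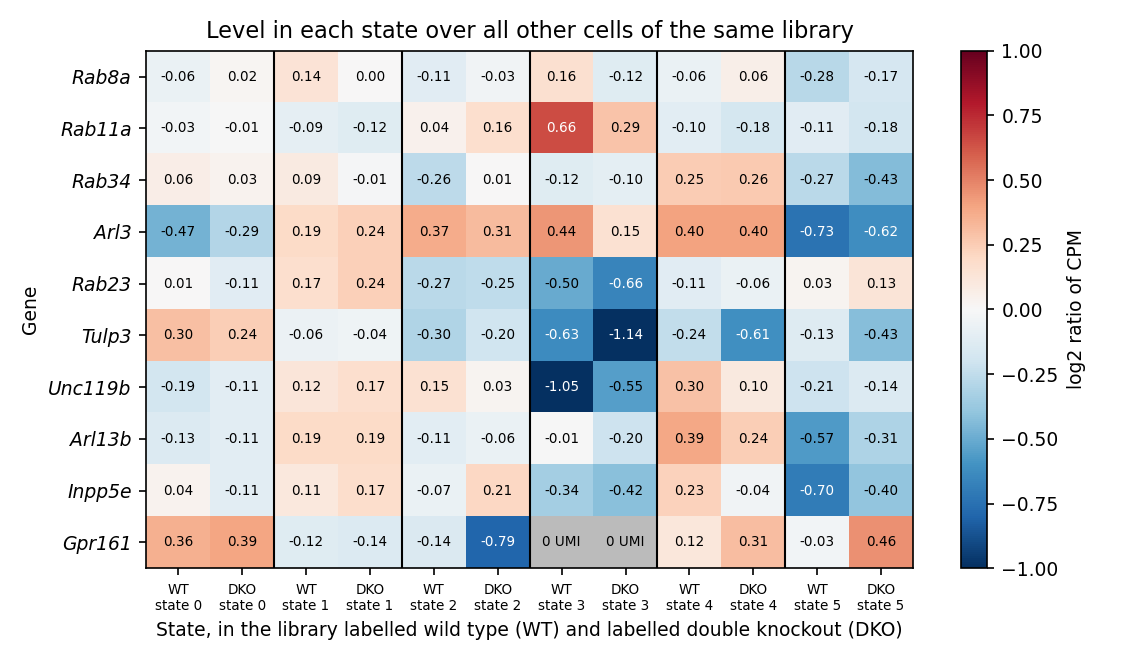
Log2 ratio of the CPM of each gene in a state over all other cells of the same library, with the value in each cell, for states 0 to 5 in the library labelled wild type (WT) and labelled double knockout (DKO). Arl3 runs from negative in states 0 and 5 to positive in states 1, 2 and 4 in both libraries, and Gpr161 had 0 UMIs in state 3.

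Arl3, the cargo release GTPase, varied most from state to state among the 6 genes with at least 20 UMIs in every state and library, over a log2 range of 1.17. Tulp3 and Unc119b, with fewer UMIs in state 3, spanned 11.03 to 27.6 CPM and 11.6 to 29.9 CPM. Arl3 was lowest in the naive-pluripotent-like state 5, at 32.3 CPM (25.7 to 40.0) and 31.9 CPM (25.4 to 39.5). That is -0.73 (-1.08 to -0.43) and -0.62 (-0.95 to -0.31) against other cells. State 0 came next at 42.9 CPM (40.7 to 45.1) and 44.3 CPM (42.6 to 46.1). Arl3 was higher in state 1, at 57.7 CPM (55.3 to 60.1) and 54.7 CPM (51.9 to 57.5), in state 2, at 65.9 CPM (62.0 to 70.0) and 59.1 CPM (54.3 to 64.3), and in the neural-like state 4, at 69.7 CPM (59.4 to 81.4) and 63.8 CPM (52.8 to 76.4). In state 3 it stood at 71.7 CPM (57.9 to 87.8) and 53.6 CPM (41.6 to 67.9). The intervals of states 1, 2 and 4 did not overlap those of states 0 and 5 in either library, while states 2 and 4 overlapped each other.

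States 0 and 2 lay on opposite sides of the other cells for Arl3. Its ratio to other cells in state 0 was -0.47 and -0.29, at percentiles 1.96 and 4.30 of the genes with at least 10 CPM. In state 2 the ratio was 0.37 and 0.31, at percentiles 95 and 94.8. Among cells with no low share of UMIs on chromosome 6 or 11, the ratio in state 0 was -0.38 (-0.48 to -0.29) and -0.14 (-0.24 to -0.04) and that in state 2 was 0.32 (0.11 to 0.52) and 0.06 (-0.20 to 0.30), so the state 2 value of the library labelled double knockout no longer lay apart from 0. The difference between libraries moved with the states. Its log2 ratio between libraries was -0.13 over all cells, 0.05 (-0.05 to 0.14) within state 0, -0.08 (-0.17 to 0.02) within state 1 and -0.16 (-0.31 to -0.01) within state 2. Giving each state the same weight in both libraries left -0.05.

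Arl13b, which activates Arl3, was also lowest in state 5, at 13.8 CPM (9.59 to 19.1) and 17.1 CPM (12.5 to 22.9), and highest in state 4, at 26.4 CPM (20.2 to 33.9) and 24.9 CPM (18.2 to 33.2). Only in the library labelled wild type were these intervals apart. Inpp5e had its lowest or second lowest level in state 5, at 3.15 and 3.42 CPM, from 8 and 9 UMIs. Unc119b was higher in state 1, at 25.9 CPM (24.4 to 27.5) and 25.6 CPM (23.7 to 27.6), than in state 0, at 22.6 CPM (21.1 to 24.3) and 22.8 CPM (21.5 to 24.1). These intervals were apart in the library labelled wild type and overlapped in the other.

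Tulp3, the receptor adaptor, had its highest level in state 0, at 27.6 CPM (25.9 to 29.4) and 26.9 CPM (25.6 to 28.4), or 0.30 (0.18 to 0.42) and 0.24 (0.13 to 0.36) over other cells. State 2 had 20.3 and 22.0 CPM, and state 4 had 20.4 and 16.2 CPM. Tulp3 lies on chromosome 6, and cells low in that chromosome made up 70.7% and 53.9% of state 2 against 7.29% and 10.6% of state 0. Among cells that were low in neither chromosome 6 nor 11, the ratio of Tulp3 in state 0 to other cells was 0.23 (0.10 to 0.36) and 0.17 (0.04 to 0.31). Gpr161 was at 2.08 and 1.71 CPM in state 0, where its ratios of 0.36 (-0.10 to 0.80) and 0.39 (-0.09 to 0.90) had intervals that held 0. In state 3 it had 0 UMIs in both libraries, with a limit at 3 counts of 2.31 and 2.36 CPM and an upper bound of the exact interval of 2.84 and 2.91 CPM, all above its level in all cells.

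Rab23, the Rab that restrains Hedgehog signalling, was highest in state 1 in both libraries, at 33.2 and 32.7 CPM, or 0.17 and 0.24 over other cells. In state 2 it stood at 26.4 and 24.7 CPM, or -0.27 and -0.25. Rab34 was highest in the neural-like state 4, at 78.8 and 87.1 CPM, and lowest in state 5, at 55.5 and 54.3 CPM. In state 2 Rab34 stood at 57.2 and 73.3 CPM, a ratio between libraries of 0.36 (0.21 to 0.50) and the only one of its states to pass 0.25. Cells low in chromosome 11, where Rab34 lies, made up 76.5% and 36.9% of state 2. In the state 2 cells that were low in neither chromosome 6 nor 11 (200 and 266 cells), Rab34 stood at 65.5 CPM (57.1 to 74.8) and 88.1 CPM (77.6 to 99.5). Rab8a varied the least of the genes with enough UMIs in every state, over a log2 range of 0.43, from 102 and 117 CPM in state 5 to at most 138 and 137 CPM.

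State 3 differed from the others in quality measures, as its depth and mitochondrial share above show. Over all genes with at least 10 CPM, the median log2 ratio of state 3 to other cells was -0.45 and -0.46. Tulp3 was at -0.63 (-1.38 to -0.03) and -1.14 (-2.07 to -0.45), Unc119b at -1.05 (-1.94 to -0.38) and -0.55 (-1.30 to 0.04), and Rab23 at -0.50 (-1.12 to 0.01) and -0.66 (-1.35 to -0.10). After that median was subtracted, these 3 genes no longer passed the limit, and Arl3 and Rab11a passed it upward. The share of all genes that passed it upward after subtraction was not taken. In state 3 the 75th percentile of genes with at least 10 CPM, before subtraction, was 0.15 and 0.14. Among these genes Arl3 lay at percentiles 93.1 and 75.3 and Rab11a at 98.6 and 83.4. Rab11a in state 3 stood at 126 CPM (108 to 147) and 102 CPM (84.9 to 121), its highest level in any state. The part of depth and mitochondrial share in these values was not tested.

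**Figure D4:**
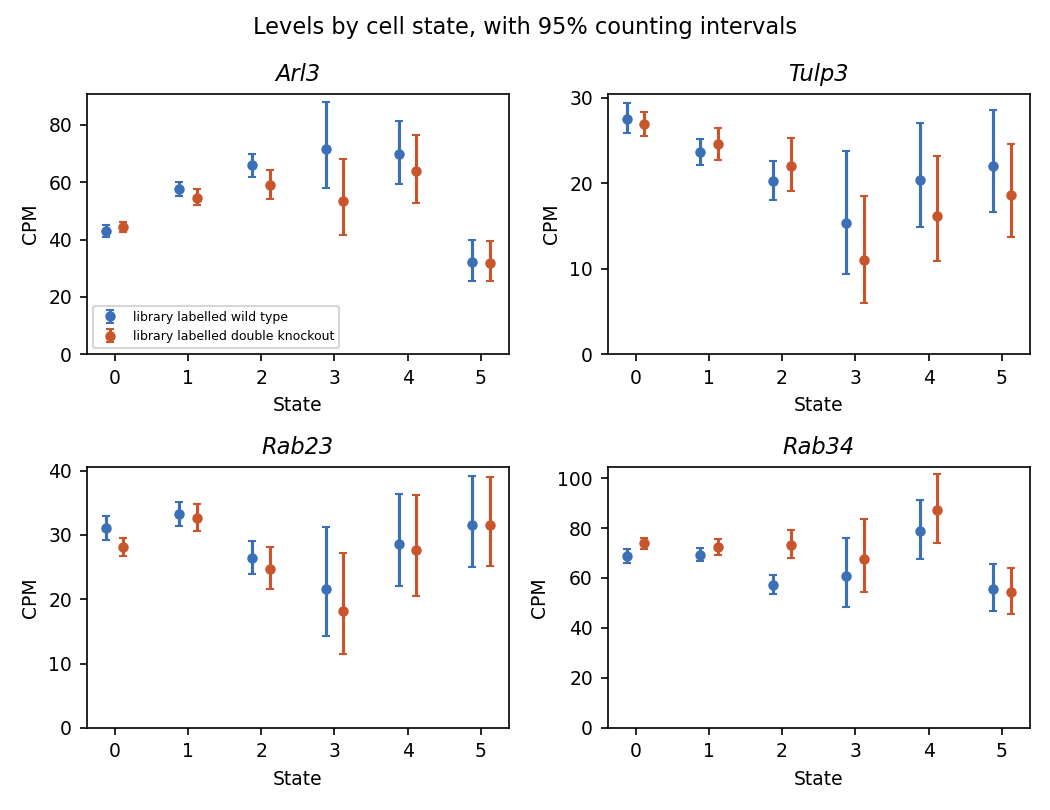
CPM of Arl3, Tulp3, Rab23 and Rab34 in each state, in the library labelled wild type (blue) and labelled double knockout (orange), with exact Poisson 95% intervals. Arl3 is lowest in state 5 at 32.3 and 31.9 CPM, Tulp3 is highest in state 0 at 27.6 and 26.9 CPM, and Rab34 in state 2 is at 57.2 and 73.3 CPM.

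Cilia are taken down before mitosis, so levels were also read across the cell cycle. Cells were split at the medians of their S gene and G2/M gene UMIs after thinning (13 and 22 UMIs) into 4 ranges, and 25.3% and 16.8% of cells lay within 1 UMI of these medians. The ranges are low in both, S high, G2/M high and high in both. Of the 10 genes, 0 were 0.5 or more higher or lower than in other cells in both libraries in any range. In the order given, 0.564%, 0.298%, 0.524% and 0.0242% of all genes were counted as higher, and 0.121%, 0.806%, 0.476% and 0.242% as lower.

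Rab23 was higher in the S high range than in other cells, by more than counting error, in both libraries. In the S high range it stood at 34.6 CPM (32.4 to 36.9) and 32.0 CPM (29.9 to 34.3), or 0.22 (0.11 to 0.33) and 0.20 (0.08 to 0.31) over other cells. In the G2/M high range it stood at 29.9 CPM (27.9 to 31.9) and 25.3 CPM (23.6 to 27.2), or -0.08 (-0.19 to 0.04) and -0.28 (-0.40 to -0.16). When cells were instead ordered by the G2/M share alone and cut into equal parts, Rab23 was 32.7 and 32.0 CPM in the lowest part, 32.4 and 29.7 CPM in the middle part and 28.6 and 25.4 CPM in the highest part. The lowest and highest parts had intervals that did not overlap in either library, at 30.6 to 34.9 against 26.9 to 30.3 CPM and at 30.1 to 33.9 against 23.7 to 27.2 CPM. Rab8a stayed within 122 to 126 CPM and 130 to 134 CPM across the 4 ranges. Arl13b had its highest levels, 21.8 and 22.4 CPM, in the G2/M high range. Its ratios to other cells there, 0.13 (-0.01 to 0.27) and 0.11 (-0.03 to 0.24), had intervals that held 0.

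Some cells had a low share of their UMIs on chromosome 6 or 11, and 2 of the 10 genes lie there. A cell with at least 4000 UMIs was called low where its share on a chromosome, without the 10 genes, was at most 0.8 times the median over cells. All groups and shares of cells by chromosome, also the cells low in neither, use only cells with at least 4000 UMIs. Cells low in chromosome 6 were 21.4% and 18.2% of cells, and cells low in chromosome 11 were 17.8% and 5.88%. For the chromosomes of the other 8 genes the share of low cells was at most 2.90%. Genes of a chromosome, apart from the 10, entered the share that picked its low cells. Their lower medians and counts below thus follow from that choice, while Tulp3 and Rab34 did not enter it.

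Rab34, on chromosome 11, stood at 48.2 CPM (44.7 to 51.9) and 43.7 CPM (38.0 to 50.0) in cells low in that chromosome and at 70.2 CPM (68.4 to 72.1) and 74.7 CPM (73.0 to 76.5) in the others. The log2 ratio was -0.54 (-0.66 to -0.43) and -0.77 (-0.98 to -0.58), next to a median of -0.50 and -0.53 over the 664 genes of chromosome 11 with at least 10 CPM. Tulp3, on chromosome 6, stood at 18.6 CPM (16.7 to 20.6) and 18.0 CPM (16.0 to 20.1) in cells low in that chromosome and at 25.7 CPM (24.6 to 26.8) and 26.7 CPM (25.6 to 27.9) in the others. Its log2 ratio was -0.46 (-0.63 to -0.30) and -0.57 (-0.75 to -0.40), next to -0.49 and -0.54 over 377 genes of chromosome 6. The intervals of both genes did not overlap between low and other cells in either library. The median of chromosome 6 genes lay inside the interval of Tulp3 in both libraries. The interval of Rab34 held the median of chromosome 11 genes in the library labelled wild type. In the other library Rab34 lay below that median. In cells low in chromosome 11, the log2 ratio of Tulp3 was -0.40 (-0.59 to -0.22) and -0.12 (-0.41 to 0.15). The 2 groups of low cells can share cells. The parts of each chromosome and of state 2 in the Tulp3 values were not tested.

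Counted at 0.25 or more lower in both libraries, 2 of the 10 genes were lower in cells low in chromosome 6 (Tulp3 and Gpr161) and 2 in cells low in chromosome 11 (Rab34 and Gpr161). Over all genes the shares were 10% and 14.3%. With at least 10 CPM they were 89.7% of the genes of chromosome 6, which had picked the low cells, against 3.02% of the genes of other chromosomes. For chromosome 11 they were 83.6% against 4.77%. The intervals of Gpr161, on chromosome 1, held 0 in each case. Arl3, on chromosome 19, was higher in these cells, by 0.32 (0.22 to 0.41) and 0.37 (0.26 to 0.47) for chromosome 6. For chromosome 11 it was higher by 0.46 (0.36 to 0.56) and 0.44 (0.26 to 0.60). In cells low in chromosome 6, Rab8a was lower, at -0.21 (-0.27 to -0.14) and -0.11 (-0.18 to -0.04). Rab11a was higher there, at 0.09 (0.01 to 0.17) and 0.16 (0.07 to 0.24). Within state 1, Arl3 stood at 80.9 CPM (70.3 to 92.8) and 82.5 CPM (64.5 to 104) in cells low in chromosome 11, against 55.9 CPM (53.4 to 58.5) and 49.8 CPM (46.8 to 52.9) in cells low in neither chromosome. Within state 0 the same comparison gave 47.7 CPM (32.6 to 67.3) and 44.7 CPM (30.4 to 63.5) against 42.8 and 44.2 CPM, with intervals that overlapped.

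Cells low in chromosome 11 were fewer in the library labelled double knockout, so the ratios between libraries were also taken without them. Among cells low in neither chromosome (6337 and 8017 cells), the ratio of Rab34 was 0.09 (0.04 to 0.15) in place of 0.13, and the median ratio of chromosome 11 genes was 0.01 in place of 0.05. Within cells low in chromosome 11 the Rab34 ratio was -0.14 (-0.37 to 0.08). The ratio of Tulp3 was 0.05 (-0.04 to 0.14) among cells low in neither chromosome, and that of Arl3 was -0.13 (-0.20 to -0.06).

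**Figure D5:**
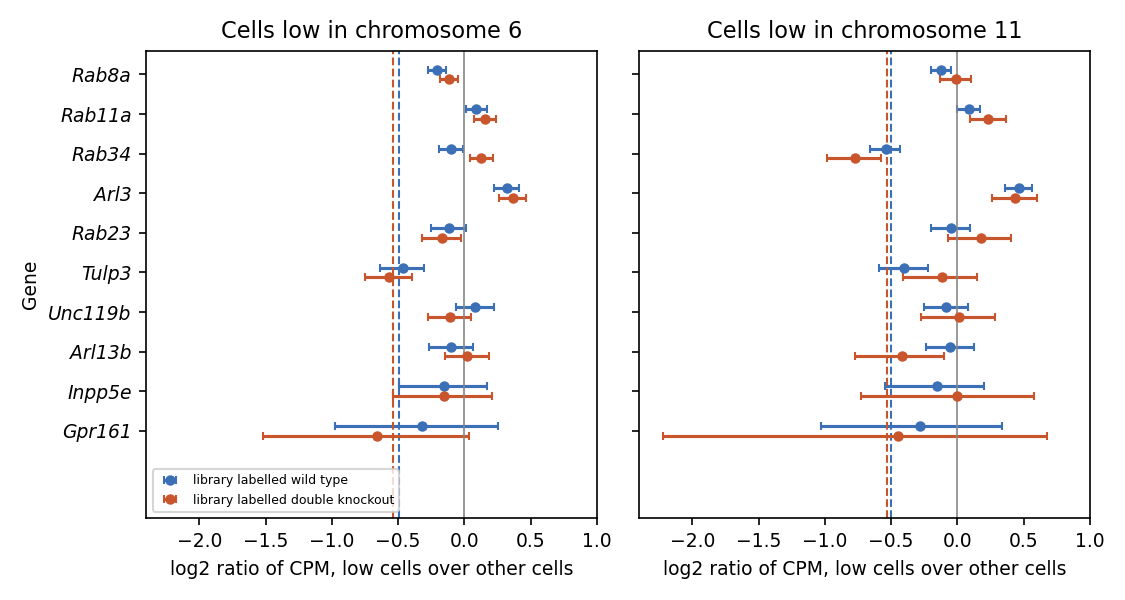
Log2 ratio of CPM in cells low in chromosome 6 (left) or 11 (right) over the other cells with at least 4000 UMIs, for each gene, with exact conditional 95% intervals. Dashed lines mark the median of the genes on that chromosome in each library, next to which Tulp3 lies on the left at -0.46 and -0.57 and Rab34 on the right at -0.54 and -0.77.

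Other genes of the same routes were read from a list of 53, of which 47 had a mean of at least 1 CPM. Past 0.25 between the libraries were 1 gene upward (Unc119) and 3 downward (Rab28, Dzip1 and Exoc6), next to the 5.7% and 8.89% of all genes given above, and the median was -0.04. Among 7 lipid cargo carriers 1 was higher and 0 lower. Unc119, the paralog of Unc119b, stood at 46.6 and 57.1 CPM, a ratio of 0.29 (0.24 to 0.35) where Unc119b had -0.06. Unc119 lies on chromosome 11, and among cells low in neither chromosome 6 nor 11 its ratio was 0.21 (0.15 to 0.28). Arl2, a relative of Arl3 that also binds these carriers, had 0.24 (0.18 to 0.30), against -0.13 for Arl3.

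In the Rab relay group 2 of 9 genes were lower and 0 higher. Dzip1, a centriole protein that takes part in bringing Rab8 to the cilium, had 1941 and 1565 UMIs, a ratio of -0.32 (-0.41 to -0.22), and Rab28 at 25.8 and 21.3 CPM, a ratio of -0.27 (-0.36 to -0.19). Of the 9 exocyst genes, whose products tether vesicles, Exoc6 passed the limit at -0.29 (-0.45 to -0.12), from 7.06 and 5.79 CPM, but was at -0.16 (-0.34 to 0.03) among cells low in neither chromosome 6 nor 11, while Exoc2 had -0.22 (-0.33 to -0.11) and Exoc4 -0.19 (-0.23 to -0.14). None passed it among 8 ciliary vesicle genes (Myo5a -0.11, Ehd1 0.09), 5 phosphoinositide enzymes (Ocrl -0.18, Inppl1 -0.17), 5 receptors, cyclases and channels (Smo, the Hedgehog signal transducer, -0.12) or 4 tubby family genes (Tulp4 -0.15, Tub -0.12). The other tubby family genes, Tulp1 and Tulp2, had less than 10 CPM and ratios of 0.246 (-0.06 to 0.56) and 0.242 (-0.10 to 0.59). Sstr3, Htr6 and Mchr1, receptors known from the cilia of neurons, had between 1 and 10 UMIs per library, so their levels were hardly above 0.

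The genes whose levels followed each of the 10 most closely were sought over the 12 sums of 6 states in 2 libraries, among 5577 genes with at least 20 CPM. Only Arl13b, Arl3, Rab8a, Rab11a, Rab34 and Rab23 had at least 20 UMIs in every sum. Pearson r of log2 CPM was 0.97 for Arl3 with Polr2m and with Hmgb3, and 0.96 and 0.95 for Arl13b with Sh3bgrl and Irx2. For Rab23 it was 0.96 with Gtse1 and 0.94 with Pip4k2b, and for Rab11a 0.96 with Smarcb1 and 0.95 with Acp1. The closest for Rab34 were Tmem120a (0.91) and Ap2b1 (0.90), and for Rab8a Ctnnbip1 and Ndufa3 (0.88 each). Among these 6 genes themselves Rab34 and Arl13b had r = 0.82, Arl3 and Arl13b r = 0.74, and Rab23 and Rab11a, which took opposite courses, r = -0.80. Gpr161 and Unc119b, down to 0 and 15 UMIs in a sum, gave larger values. Gpr161 had r = -0.93 with Rab11a, 0.88 with Rab23 and 0.82 with Unc119b, and Unc119b had -0.84 with Rab11a. The 12 sums share states and libraries and include the shallow state 3, and each named gene is the closest of 5577, so these values describe the patterns only.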

How the data were processed

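Single-cell 3′ libraries (10x Genomics v3.1 chemistry) of 2 gastruloid samples were used. The values deposited by the authors are raw UMI counts in a matrix that lists all 6794880 barcodes. Cell Ranger 8.0.1 is named per the labels' protocols, and STARsolo, STAR 2.7.9a, Seurat 5.1.0 and mm10 are named per the submitters' processing notes. The labels give 9238 and 11190 captured cells with a median of 5333 and 5398 genes. The deposited counts gave 8707 and 10587 cells here, with medians of 3275 and 2884 genes.

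Counts were summed per library, state or range, and scaled to the UMIs of those cells. Ratios used a pseudocount of 0.5 UMI. Sums carry exact Poisson intervals, ratios exact conditional intervals and shares Clopper-Pearson intervals. With 1 library per genotype no test was made, and called means past the stated fold. Barcodes lost by the gene minimum were 1 and 0, and by the mitochondrial limit 64 and 26. Doublets were kept, and Scrublet-type scores were used in an alternative. Clustering used scanpy 1.11.5 (Leiden, resolution 0.5). A state was named where at least 3 markers of a class were 1.5-fold higher and 1 was among its 10 leading genes, a rule set after the clusters were seen. The code was tested on simulated data. TMM factors came from edgeR 4.0.16.

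The 10 genes, the pathway list, the markers and the limits were chosen with earlier results of these data known. All 10 genes are named, with Sp5 and Sp8, the 2 largest ratios per pathway group at 10 CPM or more, the 2 genes most like each of the 10, and leading genes of states. Exoc6, Tulp1, Tulp2 and the receptors Sstr3, Htr6 and Mchr1 were named after their values were seen, and Pou5f1, a listed marker, checks the labelled cell type.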

Additional observations from a re-analysis of the deposited data

How the results depend on the processing

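The ratio of each of the 10 genes between the libraries was recomputed under 19 settings, giving 189 values without Gpr161 in state 3, where it had 0 UMIs. Of these, 162 kept their sign, 134 of them within the counting interval of the value over all cells, and 27 changed sign. For the 4 genes whose interval held 0, 14 values changed sign: 6 of Tulp3 (from -0.47 to -0.0010, the latter with equal state shares), 4 of Unc119b (0.00059 to 0.44), 2 of Gpr161 (0.13 and 0.24) and 2 of Arl13b (-0.14 and -0.082). For the other 6 genes 13 did, all within single states or cell cycle ranges: Arl3 0.048 in state 0, Inpp5e 0.058 in state 2, 0.11 in state 5 and 0.14 in the S high range, Rab8a -0.19 and Rab11a -0.31 in state 3, Rab11a -0.023 in state 4, -0.022 in state 5 and -0.042 in the range low in both, Rab34 -0.031 in state 5, and Rab23 0.0014 in state 5, 0.017 in the range low in both and 0.0069 in the range high in both. The median of the 10 ratios was -0.22 in state 3 alone, with Gpr161 at 0 UMIs counted by its pseudocount, and between -0.07 and 0.07 under the other settings. Upward, 1 gene passed the fold limit in states 2, 3 and 5 alone (Rab34, Unc119b and Arl13b), next to 15.6%, 26.6% and 21.7% of all genes. Downward, 1 passed it with equal state shares and in states 1 and 2 (Gpr161, next to 7.71%, 10.5% and 19.96%), 2 in state 0 and in the range high in both (Inpp5e and Gpr161, next to 9.51% and 13.3%), 4 in state 3 and 3 in state 4 (next to 31.7% and 26.6%), and 1 in the range low in both (Inpp5e, next to 14.9%). A fold limit of 0.15 gave 2 (Inpp5e and Gpr161), next to 21.3% of all genes. Across states, pairs counted as higher went from 0 to 2 at a resolution of 1.0 (both Gpr161, with 174 and 149 UMIs in all), 3 at a limit of 0.3 (Gpr161 in state 0 and Arl3 in states 2 and 4, next to 4.98%, 5.14% and 18.9% of all genes) and 2 with the median over genes subtracted. For pairs in either direction, the share over all genes was taken only for the main count and the limit of 0.3. The other counts of pairs cannot be set against a background. Pairs counted as lower went from 4 to 6 at a resolution of 1.0, 3 with doublets removed or with the variable genes of chromosomes 6 and 11 (without Rab23 in state 3 in both), 7 at a limit of 0.3 (4 in state 3 and 3 in state 5, next to 44.3% and 16.1%), 1 among cells low in neither chromosome, where state 3 kept 123 and 76 cells and fell under the minimum of 100, and 1 with the median subtracted (Arl3 in state 5 in both). At a limit of 0.3, 1 gene was lower in a cell cycle range (Gpr161 in the range low in both, next to 0.967%). The share of cells with any of the 10 was 97.3% and 96.2% with all UMIs. The cause of these changes was not tested. For the states, the subset of cells by chromosome and the subtracted median were added after seeing the data, as was leaving out state 3. TMM scaling moved the median over all genes from -0.026 to 0.0028, and no gene passed the fold limit. Depth limits Gpr161 and Inpp5e most. No paired analysis was possible because there is 1 library per genotype.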
